A study of Mus musculus with 14 samples.

Results

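Cullin-RING ubiquitin ligases were described through the H3K4me3 at 104 genes of cullins and of families that include the proteins bringing substrates to them. Not every member need be part of a ligase. A gene was taken when its symbol in the 2 deposited tables began with Cul and a digit, with Fbxl, Fbxw, Fbxo, Klhl, Kctd or Dcaf, or was Zer1, and when both tables held values for its region. The 104 genes had 107 regions, against 10542 named genes with 11388 regions in the tables. Where a gene had 2 regions (Klhl1, Fbxw4 and Klhl26), the region with the higher mean stood for it. The members were 7 cullins, 12 Fbxl, 8 Fbxw and 29 Fbxo genes, 24 Klhl genes, 13 Kctd genes, 10 Dcaf genes and Zer1. The assay was H3K4me3 ChIP-seq of cerebral cortex, taken at 3 months of age, with 14 libraries in 4 groups. These were postnatal-only nicotine (4 libraries) set against postnatal-only saccharin (4 libraries), and pre- and postnatal nicotine (3 libraries) set against pre- and postnatal saccharin (3 libraries). All mice were of strain C57BL/6J with no stated genetic change, and animals of the 2 saccharin groups received saccharin in place of nicotine. Per the labels, the solution was given to pregnant mice from conception and taken away when the offspring were 21 days old, and the offspring were then left alone to day 90. That text is the same for every library and covers no course limited to postnatal life; for that exposure only the group names speak.

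H3K4me3 is a histone mark found at the start of active and poised genes. A cullin is a scaffold: one end holds a RING protein that recruits a ubiquitin-loaded conjugating enzyme, and the other end holds an adaptor and a substrate receptor. Each cullin uses its own receptors. Cul1 works with Skp1 and F-box proteins (Fbxl, Fbxw, Fbxo), Cul3 with BTB proteins such as the Klhl and many Kctd proteins, Cul4 with Ddb1 and the Dcaf proteins, and Cul2 with Elongin B and C and receptors such as Zer1. In neurons these ligases set the turnover of synaptic, clock and cell-cycle proteins. Some Kctd proteins act outside a ligase, as auxiliary subunits of GABA-B receptors.

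Values are a signal: the authors' adjusted read counts per region, adjusted separately in each table, so levels are compared between groups of 1 exposure and not between exposures. The raw depth is unknown. Summed over all regions, a postnatal library held 2004918 to 2489860, and one of the pre- and postnatal groups 1445810 to 2372855. In both postnatal groups, library 1 matched library 2 and library 3 matched library 4 far more closely than other pairs did. Had the adjusted values been raw counts, these pairs would have differed by 1.01 to 1.08 times the variance of counting noise. Other pairs of a group would have differed by 2.21 to 2.71 times. The mean of each matched pair was therefore treated as 1 sample, leaving 2 against 2. Pairs of pre- and postnatal libraries, taken the same way, would have differed by 3.26 to 4.81 times with nicotine. With saccharin it was 1.69 to 2.73 times. The postnatal samples also differed in the share of signal held by the 15 strongest regions. That share was 25.2% in nicotine libraries 1 and 2 and 10.04% in nicotine libraries 3 and 4, against 8.47% in saccharin libraries 1 and 2 and 18.7% in saccharin libraries 3 and 4, so each group had 1 sample with a high and 1 with a low share. In the pre- and postnatal libraries it was 19.1%, 49.7% and 41.9% with nicotine and 39.9%, 28.8% and 33.1% with saccharin. Of 10 markers of cortical projection neurons 8 had a region, and Neurod6 was among those with none. Regions were found for 3 of 6 interneuron, 4 of 6 oligodendrocyte, 4 of 5 endothelial and 1 of 5 microglial markers. In each of these lists, and for projection neurons, the summed marker signal overlapped between nicotine and saccharin in both exposures. Of astrocyte and blood markers 0 of 5 and 0 of 3 had a region, so those lists could not be compared. With pre- and postnatal exposure the median projection neuron signal did not overlap. It was 80.1, 81.3 and 70.6 with nicotine, against 61.4, 68.7 and 59.9 with saccharin. The median interneuron signal was higher in both averaged postnatal nicotine samples than in both saccharin samples, but single libraries overlapped. What these medians contribute to the results was not tested. Of 5 hindbrain and spinal cord markers 2 had a region, En2 and Gbx2. Their summed signal was 59.8 to 92.3 with pre- and postnatal nicotine and 102 to 127 with saccharin, which did not overlap, and its part in the results on that exposure was not tested. In tissue, fewer cells of a type and less H3K4me3 per cell cannot be told apart.

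Most members carried more H3K4me3 than the typical gene. The median member had a signal of 132 with postnatal nicotine and 132 with postnatal saccharin, against 103 and 105 for all genes, and 65 of 104 members lay above the all-gene median. With pre- and postnatal exposure the median member had 82.7 with nicotine and 79.8 with saccharin, against 65.3 and 64.4 for all genes. The median region was of like width, 1674.5 bp for members and 1657 bp for all genes, and per kb the median signal in the postnatal table was 74.1 for members and 60.4 for all genes. A set of 100 proteasome, ubiquitin-conjugating and deubiquitinase genes stood higher still, at 86.6 per kb. Between families the median per kb was 89.4 for Fbxl, 85.4 for Klhl, 83.5 for Cul, 73.7 for Fbxw, 71.6 for Kctd, 66.7 for Fbxo and 54.8 for Dcaf genes, and within each family the members spread more widely than the families differed.

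**Figure D1:**
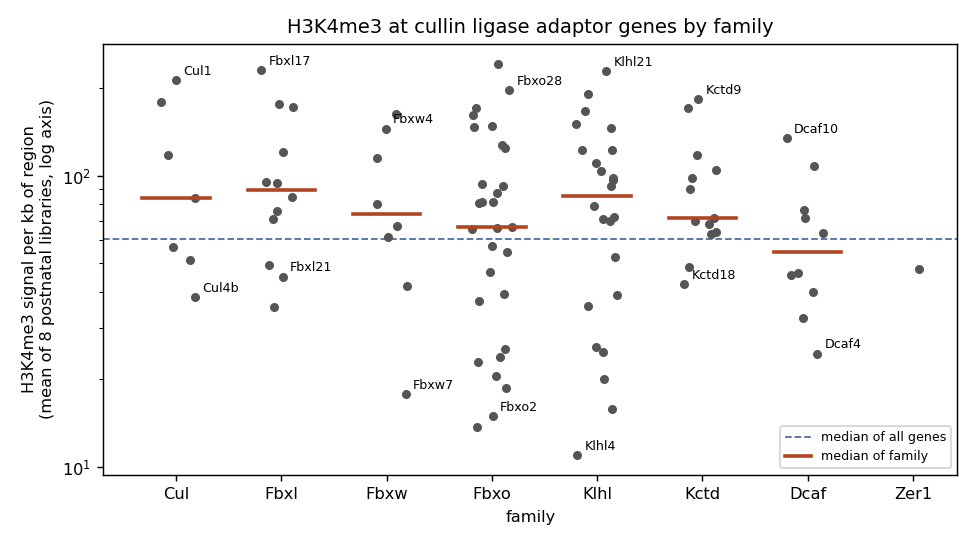
H3K4me3 signal per kb of region, as the mean of the 8 postnatal libraries on a log axis, for each of the 104 members by family; red lines are family medians and the dashed line is the median of all genes. The family medians run from 54.8 (Dcaf) to 89.4 (Fbxl) around an all-gene median of 60.4, and single members range from Klhl4 at 11.0 to Fbxo34 at 242.

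The strongest member per region was Fbxl17, whose product checks the pairing of BTB-domain dimers, with 668 and 645 in postnatal nicotine samples, against 666 and 595 in saccharin samples. It ranked 32 among 10542 genes in the postnatal table. Cul1, the scaffold of the F-box ligases, ranked 56, and Klhl21, a Cul3 receptor that acts on Aurora B in dividing cells, ranked 105. Fbxo33, Klhl29 and Cul3 ranked 313, 343 and 369. At the other end, Klhl4 had 12.1 and 9.11 in postnatal nicotine samples, against 7.77 and 12.8 in saccharin samples. Fbxo2, which binds high-mannose glycoproteins and is best known from neurons, had 15.1 and 12.6 with postnatal nicotine and 9.31 and 19.2 with saccharin. Klhl1, a neuronal actin-binding protein, had 15.0 and 11.4 with postnatal nicotine and 17.6 and 25.6 with saccharin. Fbxl21, which binds the clock proteins called cryptochromes, had 45.0 per kb in the postnatal table. Fbxw7, the receptor for cyclin E, Myc and Notch, was the weakest Fbxw gene at 17.8 per kb, and Fbxw4 and Fbxw11 were the strongest of that family by signal per region.

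Members with more CG dinucleotides at their start tended to carry more H3K4me3. RefSeq promoters (GRCm38.p6, 250 bases before to 50 after the start) were matched for 84 of 104 members, with 117 starts. Counting the richest start of a gene, the number of CG dinucleotides correlated with the log2 signal per kb across the 84 members (r = 0.42), against r = 0.472 across 8360 genes of the tables; these are descriptions across genes, which share libraries and base composition. The 250 bases before the start are shown for 8 members with 1 annotated start, in lower case with every CG dinucleotide in capitals. The first 5 are members whose nicotine values are described below, and the last 3 are strong and weak members. The windows lie at chr2:30124612-30124861 (minus strand), chr1:80340691-80340940 (minus strand), chr4:45341851-45342100 (plus strand), chr7:99465754-99466003 (plus strand), chr11:115419876-115420125 (plus strand), chr17:63500581-63500830 (minus strand), chr12:5375683-5375932 (minus strand) and chrX:114474083-114474332 (plus strand).
Zer1: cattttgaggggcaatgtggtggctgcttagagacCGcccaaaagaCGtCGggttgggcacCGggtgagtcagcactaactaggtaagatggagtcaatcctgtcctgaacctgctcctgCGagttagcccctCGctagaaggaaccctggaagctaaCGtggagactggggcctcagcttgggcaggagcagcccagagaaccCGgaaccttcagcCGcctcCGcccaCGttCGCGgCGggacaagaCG
Cul3: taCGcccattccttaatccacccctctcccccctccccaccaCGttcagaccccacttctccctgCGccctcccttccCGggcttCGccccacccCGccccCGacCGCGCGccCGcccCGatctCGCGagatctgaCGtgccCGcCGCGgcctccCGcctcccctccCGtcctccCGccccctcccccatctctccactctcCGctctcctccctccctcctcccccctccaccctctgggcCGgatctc
Dcaf10: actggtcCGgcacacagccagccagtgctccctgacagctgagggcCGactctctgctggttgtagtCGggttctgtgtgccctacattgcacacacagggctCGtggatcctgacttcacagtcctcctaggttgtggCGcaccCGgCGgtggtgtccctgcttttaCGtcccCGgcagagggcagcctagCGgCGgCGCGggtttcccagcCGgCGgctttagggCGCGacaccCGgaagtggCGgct
Klhl35: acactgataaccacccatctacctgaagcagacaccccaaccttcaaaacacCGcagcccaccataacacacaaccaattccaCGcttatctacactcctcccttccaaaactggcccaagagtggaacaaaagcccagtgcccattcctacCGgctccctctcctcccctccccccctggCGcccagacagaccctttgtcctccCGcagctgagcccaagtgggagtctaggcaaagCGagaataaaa
Kctd2: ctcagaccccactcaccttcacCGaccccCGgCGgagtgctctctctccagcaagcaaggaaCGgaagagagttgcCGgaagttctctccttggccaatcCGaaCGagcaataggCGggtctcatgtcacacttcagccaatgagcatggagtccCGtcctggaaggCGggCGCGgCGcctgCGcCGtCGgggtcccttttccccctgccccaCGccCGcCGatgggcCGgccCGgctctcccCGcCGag
Fbxl17: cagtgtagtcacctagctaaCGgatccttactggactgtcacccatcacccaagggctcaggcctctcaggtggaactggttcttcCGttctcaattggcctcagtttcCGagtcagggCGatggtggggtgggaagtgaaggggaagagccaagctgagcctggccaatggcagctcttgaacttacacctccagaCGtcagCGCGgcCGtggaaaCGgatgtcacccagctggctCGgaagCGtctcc
Klhl29: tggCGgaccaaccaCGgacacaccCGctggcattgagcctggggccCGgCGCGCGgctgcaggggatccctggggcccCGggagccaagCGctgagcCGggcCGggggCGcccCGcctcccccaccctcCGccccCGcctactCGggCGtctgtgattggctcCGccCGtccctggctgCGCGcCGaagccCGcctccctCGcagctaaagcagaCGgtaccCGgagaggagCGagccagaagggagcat
Klhl4: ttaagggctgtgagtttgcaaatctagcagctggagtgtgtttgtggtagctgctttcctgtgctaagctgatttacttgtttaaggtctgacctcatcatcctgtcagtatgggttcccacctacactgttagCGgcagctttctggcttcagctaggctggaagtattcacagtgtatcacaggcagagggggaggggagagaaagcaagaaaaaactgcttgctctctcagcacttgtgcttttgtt

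In these windows Klhl29 had 27 CG dinucleotides, Cul3 and Kctd2 had 23 each, Dcaf10 had 19 and Zer1 had 15. Fbxl17 had 11, Klhl35 had 6 and Klhl4, the weakest member in the postnatal table, had 1. The median window of a member had 15, against 16 for genes with a region in the tables and 6 for all promoters of the RefSeq table. Fbxl17 had few CG dinucleotides and yet the highest signal per region. The letters CCGGAAG (either strand) stood in 27.4% of the 117 member promoters, against 15.3% of promoters of genes with a region and 8.86% of all promoters. Dcaf10 and Kctd2 hold it in the windows shown. For the other letters searched on both strands, the shares of member promoters and of promoters of genes with a region were 66.7% and 64.6% for GGGCGG, 31.6% and 37.2% for CCAAT, 10.3% and 9.87% for CACGTG, 5.98% and 7.15% for TATAAA, 2.56% and 3.02% for the full cyclic-AMP response element, and 1.71% and 1.91% for the NRF1 palindrome. The deposited regions are on build mm9, so these windows were not laid over them.

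**Figure D2:**
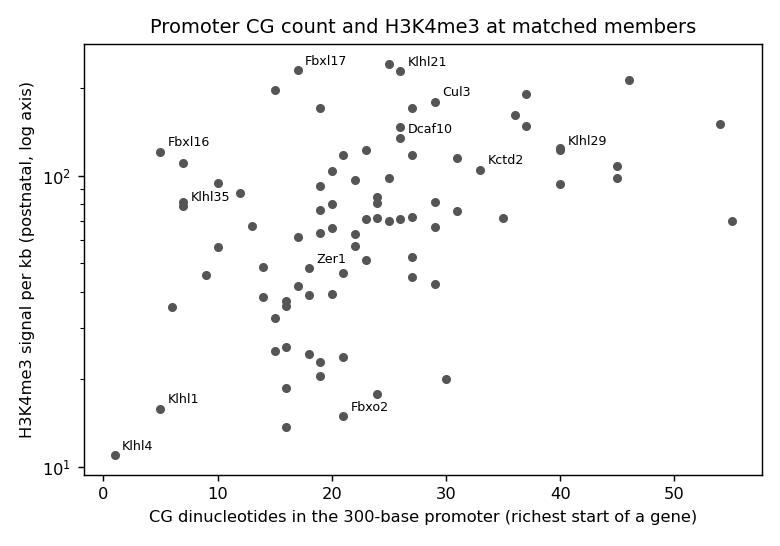
Promoter CG count of the richest annotated start (x axis) against H3K4me3 signal per kb in the postnatal table (y axis, log), 1 point for each of the 84 matched members. Klhl4 and Klhl1 sit at the low end of both axes, and Fbxl17 and Fbxl16 have high signal for their CG count.

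Members also lie close together on the chromosomes in places. The chromosomes with most members were 4 with 11, 8 with 9 and 5 with 8. These counts were not set against all genes of each chromosome, so they do not show clustering. Fbxo6, Fbxo44 and Fbxo2 are neighbours on chromosome 4 (chr4:147525205-147526423, chr4:147532930-147534513 and chr4:147537813-147538752, mm9), and their signal per kb was, in that order, 80.3, 57.4 and 15.0 in the postnatal table. Cul9 (chr17:46682303-46683838) and Cul7 (chr17:46786994-46788237), which encode related large cullins, had 51.3 and 56.9 per kb.

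With postnatal exposure no region passed the test: limma called 0 of 14873 regions (0%) at an adjusted p under 0.05, and 0 of 104 members, while 281 regions passed an unadjusted p under 0.05. Of the members, 4 were higher at that unadjusted level (3.85%, against 0.961% of all regions) and 1 was lower (0.962%, against 0.928%). Without 1 sample the members under that level in either direction numbered 2 to 7 and the regions 317 to 658, with both high counts found without saccharin libraries 1 and 2. Differences are log2 of signal plus 1, nicotine minus saccharin, with their SE. Their sign was positive at 66 of 104 members (63.5%, against 49.1% of all regions and 49.8% of genes). The median was 0.04, against -0.0036 over all regions. In the set of 100 proteasome, ubiquitin-conjugating and deubiquitinase genes 53% were positive, with a median of 0.0072. Between samples of a group the median log2 signal of members had an SD of 0.071, more than the median difference. Without saccharin libraries 3 and 4 the difference was positive at 51 members with a median of -0.0079. Under other scalings the sign turned at some members, in both directions, as listed at the end. For the median member the 95% interval of the difference reached 1.23-fold in either direction. Every nicotine sample lay above every saccharin sample at 22 members (21.2%, against 15.8% of all genes) and below at 8 (7.69%, against 13.8%).

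With pre- and postnatal exposure limma likewise called 0 of 14879 regions (0%) and 0 of 104 members, and 534 regions passed an unadjusted p under 0.05. Of the members 2 were higher at that level (1.92%, against 1.72% of all regions) and 0 were lower (0%, against 1.87%). Without 1 library 1 to 10 members and 352 to 1690 regions were under that level, with both high counts found without nicotine library 1. The difference was positive at 63 members (60.6%, against 50.5% of all regions and 52.4% of genes). Its median was 0.06, against 0.0027 over all regions and 0.0134 over all genes. The 100 proteasome, ubiquitin-conjugating and deubiquitinase genes also had a median of 0.06, with 59% positive, so this tilt was not particular to the members. Between samples of a group the median log2 signal of members had an SD of 0.058, about the size of that median. For the median member the 95% interval reached 1.35-fold in either direction. The groups did not overlap at 10 members with nicotine higher (9.62%, against 4.66% of all genes). They did not overlap at 4 with nicotine lower (3.85%, against 3.92%), which were Dcaf8, Fbxo39, Klhl13 and Klhl36. Zer1, taken into the list by name with its result known, is counted in the 2, the 63 and the 10. Adjusted p (limma) was 1.00 for all members with postnatal exposure and 0.987 or more with pre- and postnatal exposure, so the values below describe size and spread, and a member said to be under the unadjusted level did not pass the test.

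**Figure D3:**
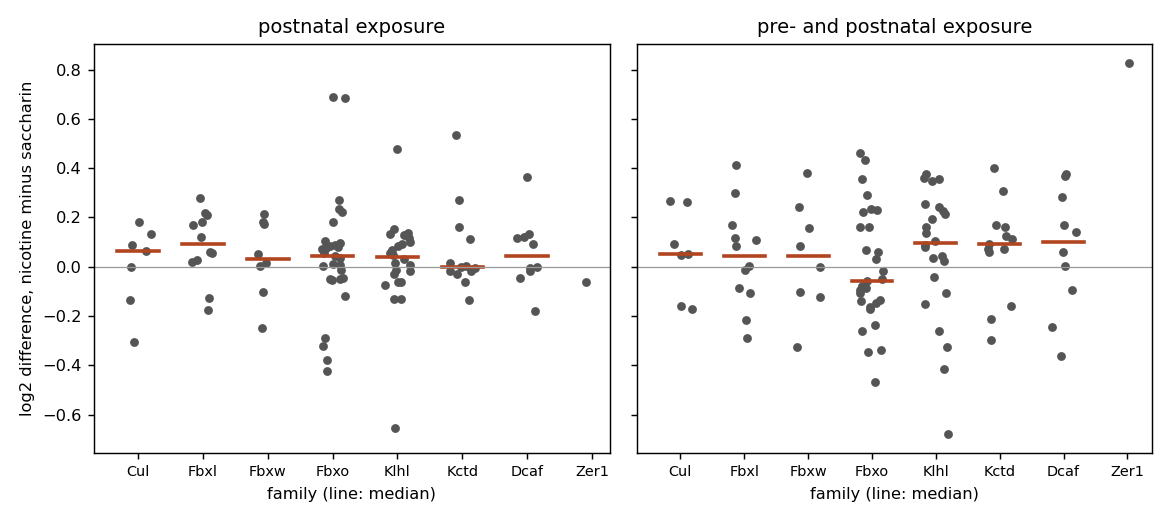
Log2 difference in H3K4me3, nicotine minus saccharin, at each member by family, for postnatal exposure (left panel) and pre- and postnatal exposure (right panel); red lines are family medians. All family medians lie between -0.06 and 0.10, and Zer1 is the highest point of the right panel at 0.83.

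Among the cullins, Cul3, the scaffold for BTB receptors, was the member whose groups stood apart in both exposures. It had 438 and 434 in postnatal nicotine samples, against 407 and 363 in saccharin samples, and 212, 199 and 218 with pre- and postnatal nicotine, against 184, 175 and 163 with saccharin. Each nicotine sample was above each saccharin sample, by 0.18 ± 0.11 in the postnatal and 0.27 ± 0.15 in the pre- and postnatal comparison, and neither passed the test. Cul2, the scaffold that carries Zer1, had 131 and 136 in postnatal nicotine samples, against 163 and 166 in saccharin samples. It was the 1 member that was lower at an unadjusted p under 0.05 with postnatal nicotine, at -0.30 ± 0.12. In the pre- and postnatal libraries it had 96.7, 94.4 and 90.3 with nicotine and 94.6, 85.5 and 83.9 with saccharin (0.09 ± 0.18), where the groups overlapped. The other cullins overlapped between groups in both exposures. Their postnatal and their pre- and postnatal differences were 0.06 ± 0.11 and 0.05 ± 0.15 for Cul1, -0.14 ± 0.21 and -0.17 ± 0.29 for Cul4b, and 0.13 ± 0.13 and 0.05 ± 0.19 for Cul5. For the large cullins they were -0.00023 ± 0.19 and 0.26 ± 0.28 for Cul7, and 0.09 ± 0.18 and -0.16 ± 0.25 for Cul9. Under other scalings or without 1 sample the sign turned at Cul1, Cul4b, Cul5, Cul7 and Cul9.

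Zer1, a Cul2 receptor for proteins that begin with glycine, had the largest difference of all members in the pre- and postnatal libraries. Its region (chr2:29978798-29980534, mm9) had 88.1, 87.5 and 95.2 with nicotine, against 46.8, 51.2 and 53.2 with saccharin. The lowest nicotine library was well above the highest saccharin library, and the nicotine mean was 90.3 ± 4.30, against a saccharin mean of 50.4 ± 3.27 (SD, n = 3 each). The difference was 0.83 ± 0.20 (adjusted p = 0.987, limma), the lowest p of all 14879 regions, and it remained between 0.78 and 0.87 when any 1 library was left out. Its adjusted p lay between 0.155, without nicotine library 1, and 1.00 under the alternatives tried. Zer1 was taken into the list by name, with this result already known. Its rank and its place in any count of members describe the gene and are no evidence about the list. In the postnatal samples Zer1 had 79.8 and 81.5 with nicotine, against 68.0 and 104 with saccharin. The saccharin samples lay on either side of the nicotine samples, with a difference of -0.06 ± 0.20. The difference between the exposures was 0.89 ± 0.30 (adjusted p = 1.00, limma). Zer1 was the 1 member (0.962%, against 0.726% of all regions) above 0 at an unadjusted p under 0.05 when the exposures were compared, and 0 members were below 0 (0%, against 0.746%). Without postnatal saccharin libraries 3 and 4 it was 0.58 at Zer1 and not under that level, and without saccharin libraries 1 and 2 it was 1.19. In that comparison 0 of 14881 regions (0%) were called and 219 passed the unadjusted level, a count that ran from 97 to 986 without 1 sample.

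**Figure D4:**
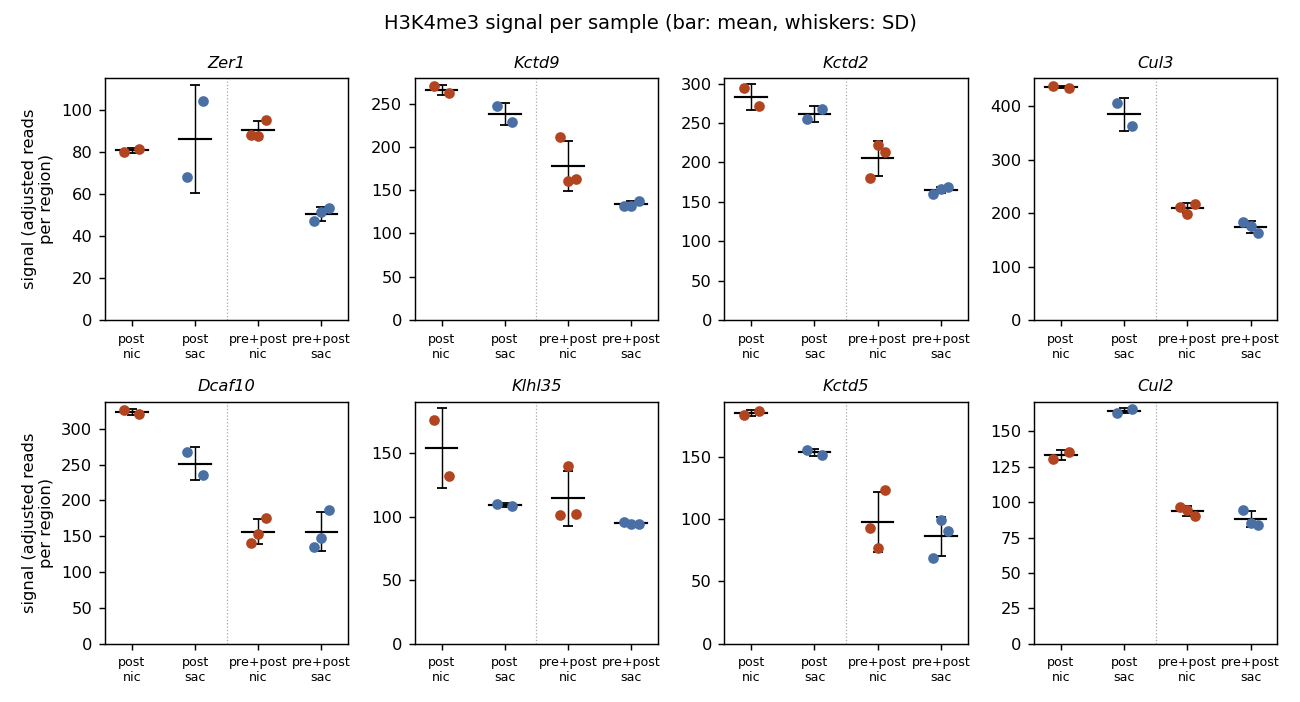
H3K4me3 signal per sample for 8 members, nicotine in red and saccharin in blue, with postnatal samples (2 per group) left and pre- and postnatal libraries (3 per group) right of the dotted line; bars are means and whiskers SD. Zer1 separates in the pre- and postnatal libraries, where the nicotine values are 87.5 to 95.2 and the saccharin values 46.8 to 53.2, whereas Cul2 and Dcaf10 separate in the postnatal samples.

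Among leucine-rich repeat F-box genes 10 of 12 had a positive postnatal difference and 7 of 12 a positive pre- and postnatal one. At an unadjusted p under 0.05 there were 0 of 12 in either exposure. Of all regions, 0.961% were higher and 0.928% lower at that level with postnatal exposure, and 1.72% and 1.87% with pre- and postnatal exposure. At such shares 0 of 12 genes is no trait of the family. Fbxl22 had 69.6 and 58.4 with postnatal nicotine and 52.8 and 52.1 with saccharin, and 55.0, 52.2 and 41.2 with pre- and postnatal nicotine, against 38.5, 34.8 and 36.7 with saccharin. Fbxl4, whose product sits in mitochondria, had 128 and 115 with postnatal nicotine and 96.2 and 113 with saccharin, and 74.8, 74.9 and 80.5 with pre- and postnatal nicotine, against 69.6, 58.6 and 59.0 with saccharin. Both genes were higher in every nicotine sample of both exposures, by 0.28 ± 0.22 and 0.41 ± 0.26 at Fbxl22 and by 0.21 ± 0.15 and 0.30 ± 0.20 at Fbxl4. The groups overlapped in both exposures at Fbxl17 (0.06 ± 0.11 and 0.08 ± 0.16), Fbxl21 (0.17 ± 0.23 and -0.22 ± 0.37) and Fbxl2 (-0.18 ± 0.15 and 0.0015 ± 0.26). Fbxl15, which acts on the ligase Smurf1, had a pre- and postnatal difference of -0.29 ± 0.20 with overlapping groups.

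In the WD40-repeat F-box genes 0 of 8 passed an unadjusted p under 0.05 in either exposure. Of all regions, 0.961% were higher and 0.928% lower at that level with postnatal exposure. With pre- and postnatal exposure the shares were 1.72% and 1.87%. At such shares 0 of 8 genes is no trait of the family. Fbxw11, the receptor known as beta-TrCP2 that acts on beta-catenin and I-kappa-B, had 300.0 and 286 with postnatal nicotine and 270.3 and 237 with saccharin. Its pre- and postnatal values were 167, 147 and 168 with nicotine and 131, 143 and 132 with saccharin, again with every nicotine value above every saccharin value (0.21 ± 0.11 and 0.24 ± 0.15). Fbxw7 varied more: 48.2 and 25.1 with postnatal nicotine and 39.3 and 44.0 with saccharin, and 34.9, 51.2 and 77.6 with pre- and postnatal nicotine and 40.6, 57.8 and 26.3 with saccharin. Its groups overlapped in both exposures (-0.25 ± 0.31 and 0.38 ± 0.32). Fbxw4, known for its part in limb development, had differences of 0.05 ± 0.11 and -0.10 ± 0.18.

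The other F-box genes, 29 in all, had 19 positive differences with postnatal and 12 with pre- and postnatal exposure. Fbxo21 passed an unadjusted p under 0.05 in the postnatal comparison, with 416 and 394 in nicotine samples, against 352 and 336 in saccharin samples (0.23 ± 0.10). In the pre- and postnatal libraries it overlapped, with 220.0, 193 and 171 for nicotine and 178, 243 and 204 for saccharin. Fbxo17, of the glycoprotein-binding group, had low signal: 32.1 and 33.1 with postnatal nicotine, against 18.5 and 21.4 with saccharin (0.68 ± 0.34). Fbxo41, a brain F-box protein, had 34.1 and 28.5 with postnatal nicotine, against 21.0 and 17.1 with saccharin (0.69 ± 0.35). These 2 weak regions had the largest postnatal differences of all members, did not overlap between groups, and had pre- and postnatal differences of -0.15 ± 0.40 and -0.17 ± 0.49; Fbxo41 was singled out after its values were seen. Fbxo32, the muscle-atrophy receptor atrogin-1, went the other way, with 113 and 108 for postnatal nicotine, against 130.4 and 140.1 for saccharin (-0.29 ± 0.14). With pre- and postnatal exposure it overlapped, at 0.29 ± 0.22, and the difference between the exposures was 0.58 ± 0.32. Fbxo28 did not overlap with postnatal exposure (391 and 386 with nicotine, against 347 and 337 with saccharin), and its difference was 0.18 ± 0.10 there and -0.24 ± 0.17 with pre- and postnatal exposure, where the groups overlapped. Fbxo25 had -0.35 ± 0.19 and Fbxo39 -0.47 ± 0.38 in the pre- and postnatal libraries. Fbxo39 had 17.1, 23.9 and 13.7 there with nicotine, against 24.97, 25.6 and 24.3 with saccharin, without overlap. Fbxo45, which works with the synaptic ligase Phr1, and Fbxo31, which acts on cyclin D1, overlapped between groups in both exposures. Their differences were -0.05 ± 0.12 and 0.16 ± 0.15 at Fbxo45, and -0.05 ± 0.12 and 0.07 ± 0.22 at Fbxo31. Fbxo33, the strongest of the 29 per region, had 0.0018 ± 0.11 and -0.08 ± 0.15, and Fbxo2 had 0.03 ± 0.48 and -0.02 ± 0.52.

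Of the Klhl genes, BTB-Kelch receptors of Cul3, 15 of 24 had a positive postnatal and 17 of 24 a positive pre- and postnatal difference. Klhl35 had 176 and 132 with postnatal nicotine, against 110.2 and 108 with saccharin. Its pre- and postnatal values were 101, 139.7 and 102 with nicotine, against 95.7, 93.9 and 94.6 with saccharin. Every nicotine sample was above every saccharin sample, by 0.48 ± 0.15 and 0.25 ± 0.18. Taken singly, the postnatal libraries overlapped, since nicotine library 3 had 119.5 and saccharin library 2 had 123. Without nicotine library 3 the pre- and postnatal difference was 0.10. Within the postnatal samples whose strongest regions held a high share the difference was 0.70, and within those with a low share 0.25. With a term for high and low share the adjusted postnatal p of Klhl35 was 0.103 (limma), which is not under 0.05. Klhl13, which with Klhl9 and Cul3 acts on Aurora B, had 21.8, 15.2 and 18.6 with pre- and postnatal nicotine, against 37.4, 25.6 and 28.2 with saccharin. All 3 nicotine values were below the saccharin values (-0.68 ± 0.36), and the postnatal groups overlapped (0.09 ± 0.29). Its partner Klhl9 had 0.14 ± 0.11 and -0.11 ± 0.18. Klhl22, a Cul3 receptor for Plk1, had 118, 92.1 and 79.5 with pre- and postnatal nicotine and 64.6, 88.7 and 72.2 with saccharin, which overlapped (0.35 ± 0.20). Klhl1 was lower in both postnatal nicotine samples at very low signal (-0.65 ± 0.42), and its pre- and postnatal groups overlapped (-0.42 ± 0.51). The strong genes Klhl21 (0.12 ± 0.11 and 0.03 ± 0.14) and Klhl29 (-0.03 ± 0.11 and 0.16 ± 0.14) showed small differences, and the weakest, Klhl4, had 0.07 ± 0.51 and 0.36 ± 0.58.

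In the Kctd family 7 of 13 postnatal and 10 of 13 pre- and postnatal differences were positive. Kctd9 had 211, 160.0 and 163 with pre- and postnatal nicotine, against 132, 131 and 138 with saccharin (0.40 ± 0.16), and was, with Zer1, the other member under the unadjusted level in that exposure. Its postnatal values were 270.1 and 262 with nicotine, against 247 and 229 with saccharin (0.16 ± 0.11), also without overlap. Kctd2 and Kctd5 are close relatives, and Kctd5 with Cul3 acts on G-protein beta-gamma subunits. Kctd2 had 180.0, 223 and 213 with pre- and postnatal nicotine, against 160.2, 166 and 168 with saccharin (0.31 ± 0.15), and 295 and 271 with postnatal nicotine, against 255 and 268 with saccharin (0.11 ± 0.11). Kctd5 had 184 and 187 with postnatal nicotine, against 156 and 152 with saccharin (0.27 ± 0.12). In the pre- and postnatal libraries Kctd5 overlapped, with 92.8, 76.8 and 124 for nicotine and 68.7, 99.1 and 90.9 for saccharin. Kctd3, the strongest Kctd gene per region in the postnatal table, and Kctd18, the weakest, overlapped in both exposures. Kctd13, a Cul3 receptor for RhoA, had -0.01 ± 0.14 and -0.21 ± 0.22, and Kctd12, a GABA-B receptor subunit, had -0.03 ± 0.11 and 0.16 ± 0.15. Kctd8, also a GABA-B receptor subunit, had 0.00061 ± 0.14 and -0.30 ± 0.23, with overlapping groups. Kctd16, another such subunit, varied widely between samples. It had 176 and 58.7 with postnatal nicotine and 51.6 and 94.7 with saccharin, and 81.2, 241 and 190.4 with pre- and postnatal nicotine and 281, 111 and 103 with saccharin. Its value went with the share held by the 15 strongest regions: the 2 postnatal samples with a high share had 176 and 94.7, those with a low share 58.7 and 51.6. The postnatal difference was 0.53 ± 0.35, but it became 1.32 with an adjusted p of 2.9e-06 (limma) without nicotine libraries 3 and 4, which leaves the high-share nicotine sample alone.

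Among the Ddb1- and Cul4-associated factors, Dcaf10 had the lowest postnatal p of all members. It had 326 and 321 in nicotine samples, against 268 and 235 in saccharin samples. Both nicotine values were above both saccharin values (0.37 ± 0.11, adjusted p = 1.00, limma), and the difference was 0.47 within high-share and 0.26 within low-share samples. With a term for high and low share the adjusted p of Dcaf10 was 0.185 (limma), which is also not under 0.05. In the pre- and postnatal libraries Dcaf10 had 140.2, 153 and 175 with nicotine and 134, 148 and 187 with saccharin, and the groups overlapped (0.0047 ± 0.17). The difference between the exposures was -0.36 ± 0.22. Dcaf8 had 46.4, 40.3 and 52.0 with pre- and postnatal nicotine, against 64.5, 58.9 and 55.3 with saccharin, all lower but not past the unadjusted level (-0.36 ± 0.24), and -0.0043 ± 0.15 in the postnatal samples. Dcaf7, a WD40 protein that binds the kinase Dyrk1a, had 0.09 ± 0.13 and -0.25 ± 0.19. Dcaf5, the strongest of the family per region, had -0.0016 ± 0.10 and -0.09 ± 0.15, and Dcaf4, the weakest, had -0.02 ± 0.35 and 0.06 ± 0.42, all with overlapping groups.

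At 7 members every nicotine sample was above every saccharin sample in both exposures: Cul3, Fbxl4, Fbxl22, Fbxw11, Klhl35, Kctd2 and Kctd9. That is 6.73% of members, against 1.09% of all genes. The opposite pattern was found at 0 members (0%), against 0.588% of all genes. Each exposure had its own saccharin libraries. Leaving out a sample cannot turn the sign at these 7, as the choice fixes it, but the size moved. Without 1 sample the postnatal difference ran from 0.10 to 0.26 at Cul3, 0.09 to 0.33 at Fbxl4, 0.15 to 0.40 at Fbxl22, 0.12 to 0.31 at Fbxw11, 0.27 to 0.69 at Klhl35, 0.05 to 0.17 at Kctd2 and 0.11 to 0.21 at Kctd9. The count depended on the scaling and on how libraries were counted: under quantile normalization it was 4 (against 0.652% of all regions), under median scaling 5 (against 1.04%), and with the 8 postnatal libraries taken singly 1, Cul3 (against 0.228%), where the share of all regions with the averaged samples was 0.934%. All of these were among the 7. Across all 104 members the direction was the same in both exposures at 47.1%, against 50.2% of all regions, and the differences correlated with r = 0.04 (n = 104 genes, which share the same samples).

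**Figure D5:**
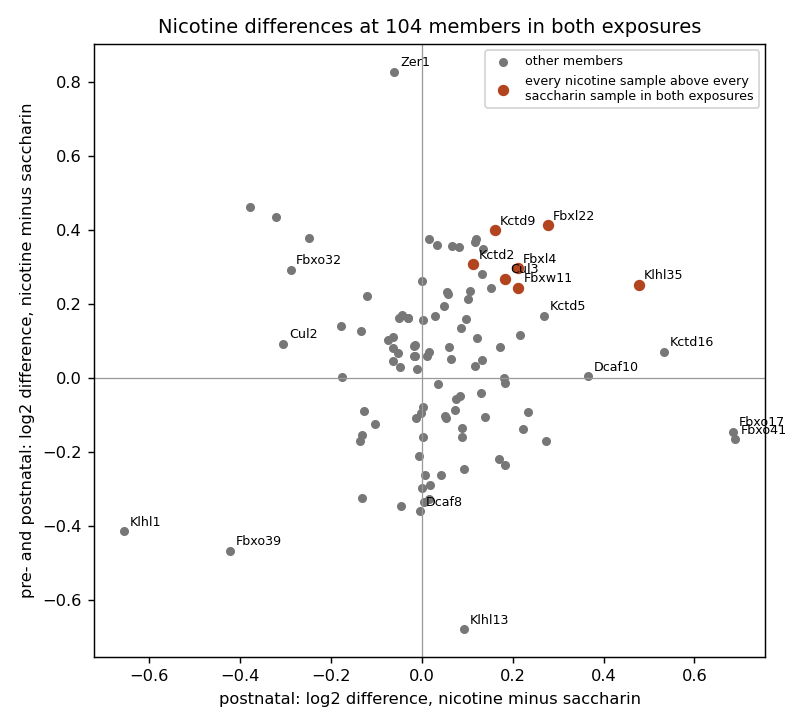
Postnatal (x axis) against pre- and postnatal (y axis) log2 difference, nicotine minus saccharin, at the 104 members; red points are the 7 members higher in every nicotine sample of both exposures. Zer1 stands alone at the top with a postnatal difference of -0.06, and over all members r was 0.04.

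The rest of the pathway was taken from a list of 98 genes outside these families, of which 77 had a region. limma called 0 of 77 in either exposure (0% of all regions). With postnatal exposure the median difference was -0.0031, and 1 gene was higher and 1 lower at an unadjusted p under 0.05 (0.961% and 0.928% of all regions). With pre- and postnatal exposure the median was 0.06, again with 1 higher and 1 lower (1.72% and 1.87% of all regions). The higher gene was the same in both: Kbtbd2, a Cul3 receptor for the PI3-kinase subunit p85-alpha. It averaged 282 ± 9.69 in postnatal nicotine samples and 237 ± 31.7 in saccharin samples (SD, n = 2 each; 0.26 ± 0.12). In the other exposure it averaged 209 ± 15.4 in nicotine libraries and 152 ± 29.1 in saccharin libraries (SD, n = 3 each; 0.47 ± 0.16). The lower genes were Glmn, which caps the RING protein Rbx1, with postnatal exposure (-0.46 ± 0.19), and Dcun1d2, a helper of cullin neddylation, with pre- and postnatal exposure (-0.46 ± 0.19). Of the 6 genes of NEDD8 conjugation with a region, 3 had a positive postnatal and 1 a positive pre- and postnatal difference, among them the NEDD8-conjugating enzyme Ube2m at 0.15 ± 0.12 and -0.35 ± 0.18. Of 7 genes of the COP9 signalosome, which removes NEDD8 from cullins, 1 was positive with postnatal and 5 with pre- and postnatal exposure. Among receptors of other names, Klhdc2, a Cul2 receptor, had a postnatal difference of 0.23 ± 0.12, Klhdc3, another Cul2 receptor, a pre- and postnatal difference of 0.39 ± 0.21, and Cish, a Cul5 receptor of cytokine signalling, a postnatal difference of -0.50 ± 0.25.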

How the data were processed

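H3K4me3 ChIP-seq of mouse cortex was analysed from 2 deposited tables, 1 per exposure, on build mm9. Each table gives a signal per region and library, which is a read count that the authors had adjusted with edgeR (tool and build per the submitters' processing notes), so values are not whole. What aligner and peak caller were used is not given in the sources used here. Of 19203 rows per table, 4322 repeated coordinates without values and were left out, leaving 14881 regions. Nothing in the labels ties replicates to separate animals, and p-values therefore measure only the spread between these samples, which may be technical.

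Values were tested as log2 of signal plus 1 with limma 3.58.1 (trend, R 4.3.3), two-sided, over regions with at least 1 in as many samples as the smaller group. p-values were adjusted by Benjamini-Hochberg over all regions. Each exposure was fitted on its own, and the difference between exposures in 1 fit of both. The procedure was tested on simulated data. Genes named were the cullins, Zer1, members taken for their roles, the 5 lowest p-values per exposure and direction and for the difference between exposures, the strongest 2 and the weakest per family, and from the pathway list the 2 lowest p-values per exposure and direction. Fbxl4, Fbxl16, Fbxl22, Fbxo6, Fbxo34, Fbxo41, Fbxo44, Kctd8 and Klhl36 were named after their values were seen. Members, lists and rules were chosen with earlier results of these data known. Alternatives were other pseudocounts, filters, scalings, blocks and samples left out. Promoters came from RefSeq (GRCm38.p6). Not all genes taken by these rules are reported here. Regions were not matched to exons, introns or UTRs.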

Additional observations from a re-analysis of the deposited data

How the results depend on the processing

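No member was called under any alternative except Kctd16 without postnatal nicotine libraries 3 and 4 (0 to 1 members called without 1 sample). Regions called with postnatal exposure were 0, but 1 with a block for the averaged pairs, 9 with a term for the high and low share (the crossed pairing), and 0 to 31 without 1 sample. The high count was without nicotine libraries 3 and 4, and without nicotine libraries 1 and 2 it was 7. With pre- and postnatal exposure 1 was called by limma without trend and 0 to 17 without 1 library, the 17 without nicotine library 1. In these fits a lone sample is assumed to vary like the other group. Between libraries of like replicate number, deviations from the group means had r of -0.32 to -0.25 postnatal and -0.11 and -0.10 pre- and postnatal. Like numbers had opposite shares in the postnatal groups and samples were few, so these values cannot show whether the numbers pair samples. A replicate block called 0 regions over the 8 postnatal libraries and 0 over the 6 pre- and postnatal ones. The 8 postnatal libraries as samples gave 0 calls and 1375 regions at an unadjusted p under 0.05, against 281. The count of members above saccharin in both exposures was 4 under quantile normalization (against 0.652% of all regions) and 1 with 8 libraries (against 0.228%), an alternative chosen after seeing the data. Of 123 differences recomputed for named genes, 68 kept their sign under every alternative tried. Many of these genes were chosen by their p-values or after their values were seen. Where groups do not overlap, leaving out a sample cannot turn the sign, so part of that count is fixed by the choice. It was not set against genes chosen without their values. The cause of the turns was not tested. The postnatal difference turned sign under quantile normalization at Cul1 (-0.0463), Cul7 (0.0666), Dcaf4 (0.0784), Dcaf8 (0.0134), Fbxl15 (-0.0146), Fbxl16 (-0.0283), Fbxl17 (-0.0444), Fbxo33 (-0.0881), Fbxo34 (-0.0619), Kctd18 (0.0278) and Kctd3 (-0.0632). It did so under median scaling at Cul7 (0.0459), Dcaf4 (0.0287), Dcaf5 (0.0452), Dcaf8 (0.0424), Fbxo25 (0.0015), Kctd12 (0.0159), Kctd13 (0.0413) and Klhl29 (0.0174). The pre- and postnatal difference turned sign under quantile normalization at Cul1 (-0.0415), Cul5 (-0.0081), Dcaf10 (-0.0508), Fbxl2 (-0.0363), Fbxo2 (0.2313) and Klhl21 (-0.0757). It did so under median scaling at Dcaf10 (-0.017) and Fbxl2 (-0.0197). It did so under a replicate block at Dcaf10 (-0.1141), Fbxo17 (0.0638), Fbxo21 (0.1135), Fbxw4 (0.0116), Kctd13 (0.0342) and Kctd16 (-0.2804). It did so under a share covariate at Dcaf10 (-0.0062) and Kctd16 (-0.1104). Without 1 sample, postnatal differences ran from -0.1047 to 0.1042 at Cul7, -0.2443 to 0.2125 at Dcaf4, -0.0372 to 0.034 at Dcaf5, -0.1311 to 0.1226 at Dcaf8, -0.4499 to 0.5196 at Fbxo2, -0.0427 to 0.0463 at Fbxo33, -0.1664 to 0.1902 at Fbxo34 and -0.2495 to 1.317 at Kctd16. Others ran from -0.0989 to 0.1044 at Kctd3, -0.0526 to 0.0538 at Kctd8, -0.158 to 0.0986 at Klhl29, -0.1535 to 0.1675 at Klhl36, -0.2606 to 0.3948 at Klhl4, -0.0272 to 0.2923 at Cul5, -0.0327 to 0.2102 at Cul9 and -0.0728 to 0.1087 at Fbxl15. Others ran from -0.0536 to 0.1117 at Fbxl16, -0.0304 to 0.3677 at Fbxl21, -0.1615 to 0.0695 at Fbxo25, -0.1783 to 0.0791 at Fbxo45, -0.7049 to 0.2082 at Fbxw7, -0.1394 to 0.1279 at Kctd13, -0.156 to 0.3415 at Klhl13 and -0.091 to 0.3011 at Fbxo6. Others ran from -0.2024 to 0.0751 at Kctd18, -0.2737 to 0.0025 at Cul4b, -0.0213 to 0.1416 at Fbxl17, -0.0501 to 0.1528 at Fbxw4, -0.0201 to 0.2896 at Klhl22 and -0.3645 to 0.2438 at Zer1. Without 1 sample, pre- and postnatal differences ran from -0.0631 to 0.1814 at Cul1, -0.147 to 0.1736 at Dcaf4, -0.0614 to 0.231 at Fbxl17, -0.2165 to 0.2128 at Fbxl2, -0.2252 to 0.2895 at Fbxo2, -0.1195 to 0.3712 at Fbxo31, -1.013 to 0.1228 at Klhl1 and -0.0891 to 0.2131 at Cul5. Others ran from -0.2172 to 0.0344 at Dcaf5, -0.6339 to 0.164 at Fbxo41, -0.2464 to 0.5338 at Kctd16, -0.1333 to 0.239 at Kctd18, -0.4089 to 0.0154 at Kctd3, -0.0617 to 0.1062 at Klhl21, -0.2859 to 0.8733 at Klhl4 and -0.334 to 0.0299 at Cul4b. Others ran from -0.0971 to 0.1408 at Dcaf10, -0.3565 to 0.0445 at Kctd13, -0.0137 to 0.3267 at Kctd5, -0.4351 to 0.0395 at Fbxo17, -0.2002 to 0.0231 at Fbxo21, -0.2762 to 0.036 at Fbxw4 and -0.2606 to 0.0252 at Klhl9. The raw depth is unknown, so no interval for counting error can be given.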

Other observations

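Kctd16 was not the only member whose postnatal signal differed between samples with a high and a low share held by the 15 strongest regions. The mean log2 difference between high-share and low-share samples, taken without regard to nicotine, was 1.22 at Kctd16, 0.87 at Fbxo46, 0.74 at Klhl5 and 0.64 at Klhl28. At Dcaf12l1 it was -0.55, at Fbxo39 -0.49 and at Fbxo5 -0.44. These genes were chosen after their values were seen. The second, weaker region of Fbxw4 had 53.5 and 16.3 in postnatal nicotine samples and 25.4 and 47.9 in saccharin samples, so the higher value of each group was in its high-share sample. In the pre- and postnatal libraries that region had 45.3, 128 and 58.8 with nicotine and 123, 56.8 and 38.2 with saccharin.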
